A study of Enallax costatus with 10 samples.

Results

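The comparison of Dry drops with drops in Late desiccation covers the last step of water loss in the green alga Enallax costatus, from drops that still held liquid to flattened, dry ones. The compared genes were all assembly genes with 10 or more expected counts in at least 2 of the 4 libraries of these stages, and 11963 of 32478 assembly genes (36.8%) met this rule. Of these, 11925 could be tested and 38 were removed by the filter on low counts. Strain CCAP 276-31 was grown for 6 weeks, and portions of 40 µL were dried on cover glasses. Dry drops had gone fully flat, stayed in the drying chamber for 11 more hours and were collected at about 24 h. Late desiccation drops were collected at 7.5 h, with 60% of their volume lost. The series also holds Hydrated drops at the start (0 h), Early desiccation drops at 2.5 h (25% lost) and Rehydrated drops 1 h after rewetting, with 2 libraries at each of the 5 stages. It has no undried drops at 24 h, so water loss, elapsed time and the 11 h hold cannot be told apart in this comparison. Whether the paired libraries are separate cultures is not said in the labels, and every p-value therefore measures a spread that may be technical.

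Algae that survive drying lose their free water, stop growth and photosynthesis, and resume both when water returns. In such organisms, transcripts present in the dry state include those made during drying and those that outlast it, and the store can be used when water comes back. Protective proteins, sugars, antioxidant enzymes and changes in the photosynthetic apparatus are the processes usually linked to drying. Neither deposited table pairs its identifiers with gene names, so none of these processes could be looked up here, and the description goes by levels, sizes of change and time courses. Sequencing measured the make-up of the RNA in a drop: fewer cells of a type and less RNA per cell cannot be told apart, and the total RNA of a cell was not measured.

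The 4 libraries held 2497336 and 3713467 expected counts in Dry and 2643993 and 2829850 in Late desiccation. In log2 CPM (CPM being the counts divided by the scaled library size and multiplied by 1e6) across the 11925 genes, the Dry libraries correlated at 0.91 (Pearson r) and the Late desiccation libraries at 0.86, whereas the r between stages lay between 0.57 and 0.60. The libraries of the series also split in a way the stages do not give. Late desiccation replicate 2, Hydrated replicate 2 and both Rehydrated libraries shared 147 genes that had 3 or more counts in all of them and none in the other 6 libraries, against at most 19 such genes for any other set of 4. By the rule, which needs 2 of the 4 libraries, none of those 147 genes is among the compared genes. Both Dry libraries and Late desiccation replicate 1 lie on the other side of this split, and its part in the results was not tested beyond the fits given below.

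Between drops at 60% volume loss (7.5 h) and dry drops (about 24 h), levels changed widely in both directions. In Dry, 1598 of the 11925 compared genes rose and 1224 fell relative to Late desiccation (edgeR, adjusted p under 0.05), while 9103 were not called. These are 13.4% and 10.3% of the compared genes. Of the 1224 genes that fell, 713 had 10 or more counts in both Late desiccation libraries and fewer in both Dry libraries, and 122 of the 1598 genes that rose met the rule through Dry alone in the same way. Such genes had to differ to be included, so the 2 counts cannot be set against each other as a balance of directions. Among all 16190 genes tested, 9.97% were higher and 7.82% lower, and 58 of those calls (16 higher and 42 lower) were on genes that are not among the compared ones. The median log2 fold change was 2.82 for the genes that rose and -2.82 for the genes that fell, with median standard errors of 0.61 and 0.66. With genes that had no counts in a stage set at their bound (3 counts over the 2 libraries of that stage), these medians were 2.82 and -2.73. Of the genes that rose, 1317 did so by more than 4-fold, 325 by more than 16-fold and 70 by more than 64-fold. Of the genes that fell, 1030 did so by more than 4-fold, 167 by more than 16-fold and 7 by more than 64-fold, with the same bounds. On the fitted values, which are no bounds for genes without counts, 326 genes rose and 261 fell by more than 16-fold, and 88 rose and 116 fell by more than 64-fold. Past 64-fold, the direction with more genes thus turned with the treatment of genes at 0.

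**Figure D1:**
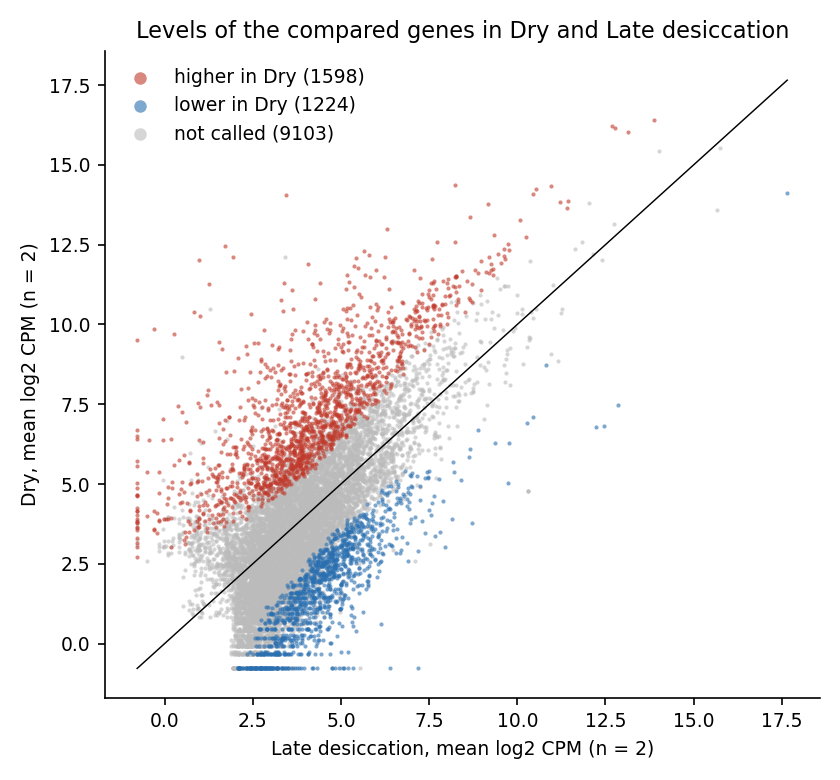
Mean log2 CPM of each of the 11925 compared genes in Dry (vertical axis, n = 2) against Late desiccation (horizontal axis, n = 2), on TMM-scaled library sizes, with the line of equal levels. The 1598 genes higher in Dry lie above the line and the 1224 lower genes below it, and the horizontal and vertical rows of points at the edges are genes without counts in 1 of the stages.

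The direction of these changes is relative to the scaling between libraries. TMM, which assumes that most genes keep their level, gave factors of 0.664 and 0.556 to the Dry libraries and 1.101 and 1.317 to the Late desiccation libraries. Under TMM 56.6% of the called genes were higher in Dry, and under plain total counts 13.5% were, with 366 genes higher and 2343 lower. Over the 16190 genes, the log2 fold change had a median of -0.43 under TMM and -1.41 under total counts. Called in the same direction under each of 4 scalings (TMM, RLE, upper quartile and total counts) were 365 higher and 1181 lower genes. These counts were 41 and 161 without Late desiccation replicate 1, and both were 0 without Late desiccation replicate 2 or either Dry library by edgeR, with 520 to 558 genes higher and 1737 to 1790 lower at an unadjusted p under 0.05 under every scaling and no other tool run. The count of 2822 called genes also rested on each library of these stages: it was 714 without Dry replicate 1, 334 without Dry replicate 2, 375 without Late desiccation replicate 1 and 366 without Late desiccation replicate 2. Leaving out an Early desiccation library gave 1477 (replicate 1) or 1481 (replicate 2), and leaving out a Rehydrated library gave 4579 or 4657 in the same order. These libraries are in neither compared stage, and they enter through the filter, the scaling and the shared estimate of the spread. A fit of the 4 compared libraries alone called 2711 higher and 2501 lower genes, and a term for the library split left 837 and 582. Without each of the 4 libraries in turn, 124 genes stayed higher and 27 stayed lower in every fit.

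The difference between the stages was larger than the spread within them for most of the compared genes. The median absolute difference between Dry and Late desiccation was 1.28 in log2 CPM, and the replicates of a stage differed by a median of 0.50 in Dry and 0.41 in Late desiccation. Both Dry libraries lay above both Late desiccation libraries in 4187 compared genes (35.1%) and below both in 4893 (41%), with 2845 genes overlapping. Over all tested genes these shares were 28% and 38.1%. The rule that chose the genes adds to this separation: 2746 genes met it through both Late desiccation libraries with fewer than 10 counts in either Dry library, and 238 met it through both Dry libraries alone. Split into disjoint pairs, Dry replicate 1 minus Late desiccation replicate 1 and Dry replicate 2 minus Late desiccation replicate 2 had the same sign in 9935 genes (83.3%), with a Pearson r of 0.80 across genes. The pairing the other way round gave 9836 genes (82.5%) and an r of 0.77. Both pairs differed by more than 2-fold in the same direction in 5355 genes and in opposite directions in 146. Genes are not independent replicates, and these values are given as a description.

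**Figure D2:**
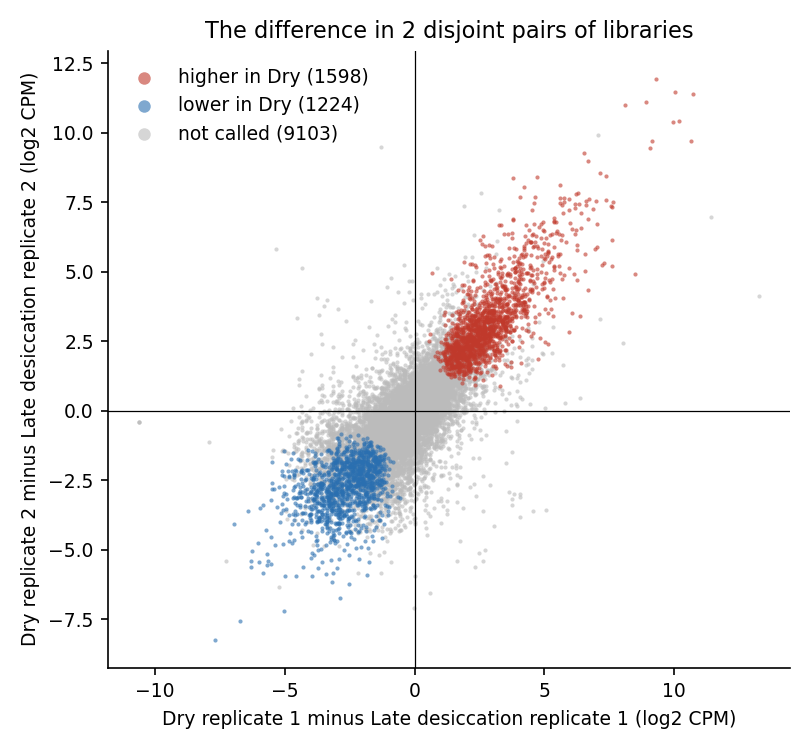
Difference in log2 CPM between Dry replicate 2 and Late desiccation replicate 2 (vertical axis) against that between Dry replicate 1 and Late desiccation replicate 1 (horizontal axis) for the 11925 compared genes. The cloud runs along the diagonal with an r of 0.80, and the few points far out in the upper left and lower right quadrants are among the 146 genes that differed over 2-fold in opposite directions.

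The genes that rose came to make up most of the RNA that was counted in dry drops. They held 67.1% and 69.1% of all counts in the Dry libraries, against 12.7% and 16.9% in Late desiccation (means 68.1% ± 1.38 and 14.8% ± 2.98, SD, n = 2 each). The genes that fell held 1.77% and 1.33% in Dry, against 36% and 29% in Late desiccation (1.55% ± 0.308 and 32.5% ± 5). The compared genes that were not called held 29.5% ± 0.934 in Dry and 49.9% ± 0.724 in Late desiccation. These shares use no scaling between libraries, and the genes were selected as called in the same libraries, so they describe the size of the change and do not test it. A large part of the counts of the fallen genes lay in the assembly gene TRINITY_DN224299_c10_g1, described below.

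Calls were spread unevenly over levels of expression. In the top quartile of compared genes by mean level over the 10 libraries, 28.8% were higher and 6.37% lower in Dry, with a median log2 fold change of 0.87. In the next quartile 14.1% were higher and 13.0% lower, with a median of -0.07. In the quartile below that the shares were 6.21% and 11.4% with a median of -0.49, and in the lowest quartile 4.43% and 10.3% with a median of -1.29. The level includes the Dry and Late desiccation libraries, and far more genes met the rule through Late desiccation alone than through Dry alone (2740 and 224 of those tested, with median log2 fold changes of -2.26 and 3.72). The medians of the scarce genes are therefore partly set by the rule, and no difference between abundant and scarce genes is drawn from them. The median standard error was 0.56 in the highest quartile and 1.04 in the lowest, so a change of a given size was easier to call among abundant genes.

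A larger share of genes was called lower at longer effective length. This length was read from the ratio of the 2 deposited tables, relative in each library to the median of 2968 genes with 10 or more counts in all libraries. Of the quartile with the shortest sequences, 12.6% rose and 7.11% fell; of the longest quartile, 14.7% rose and 14.6% fell. The medians of all log2 fold changes in these quartiles were -0.14 and -0.25 and the median standard errors 0.83 and 0.57. A change of a given size was thus easier to call among longer sequences, and no link between length and direction is drawn. Genes with a non-whole count in any of the 4 libraries, where RSEM divided reads among similar sequences, were higher in 16.5% and lower in 8.80% of 3693 cases. Genes with whole counts throughout were higher in 12% and lower in 10.9% of 8232 cases. Genes that shared their assembly component with another tested gene, as near-identical copies or fragments of a gene do, were higher in 17.0% and lower in 8.37% of 2653 cases, against 12.4% and 10.8% of 9272 genes that stood alone. Median log2 fold changes were 0.23 and -0.33 in the first of these contrasts and 0.29 and -0.29 in the second. Neither contrast was matched for level or for the stage through which genes met the rule, so no direction is drawn from them. In 102 components 2 or more genes were called, and in 95 of these (93.1%) all called genes moved one way, 79 components upward and 16 downward. In the other 7 components called genes moved both ways. Reads can be divided among genes of a component, so its members are not separate measurements.

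Some transcripts were seen in only one of the stages. No count was recorded in either Dry library for 198 compared genes, of which 112 were called lower, and their median level in Late desiccation was 5.92 CPM. In Late desiccation 34 compared genes had no count in either library. Of these, 29 were tested and 26 were called higher, with a median of 16.2 CPM in Dry among those tested. A compared gene without counts in either library of a stage could meet the rule only through both libraries of the other stage. Such genes had to differ to be included, so their number and calls do not measure how often transcripts were lost or gained. The rule also took in 2746 genes through Late desiccation alone and 238 through Dry alone, so 198 and 34 cannot be set against each other. A total of 3 counts, the limit that a count of 0 allows, corresponds to 0.81 CPM over both Dry libraries and 0.459 CPM over both Late desiccation libraries, covering counting error only. Of the 198 genes without counts in Dry, 160 had counts in both Hydrated libraries and 73 in both Rehydrated libraries. Of the 34 genes without counts in Late desiccation, 18 had counts in both Hydrated libraries and 9 in both Rehydrated libraries. Depth was not matched for these counts. Of all compared genes, 11812 and 11856 had counts in the Hydrated libraries and 11283 and 9535 in the Rehydrated ones, so the 2 stages cannot be compared on them.

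Dry drops showed fewer assembly genes than drops in Late desiccation, and their counts were spread differently. At a common depth of 2497321 counts, 18406 and 18984 genes were detected in the Dry libraries and 23874 and 25760 in the Late desiccation libraries (18695 ± 409 and 24817 ± 1333, SD, n = 2 each). The 2 stages did not overlap, but with 2 libraries each the exact permutation test (two-sided) cannot go below p = 0.333, the value found here. A common depth evens out total counts and not the counts left for scarce genes. Those were fewer in Dry, where the 1000 genes with most counts held a larger share (given below). Fewer detected genes therefore do not show that transcripts were absent from dry cells. The 10 genes with most counts held 27.8% and 29.9% of counts in Dry and 50.8% and 41.5% in Late desiccation. For the 100 genes with most counts the shares were 54.1% and 55.8% in Dry and 64.8% and 56.3% in Late desiccation (55.0% ± 1.21 and 60.5% ± 6.04), and for the 1000 genes with most counts 83.9% and 84.9% in Dry and 78.9% and 73.8% in Late desiccation (exact permutation p = 0.333 for each of the 3 measures). Late desiccation thus had more of its counts in its first few genes, and Dry more in a broad band of abundant ones. The first gene alone held 28% and 21.4% in Late desiccation (TRINITY_DN224299_c10_g1, described below) and 4.81% and 5.72% in Dry. From rank 3 to rank 10 the cumulative share went from 42.5% to 50.8% and from 32.5% to 41.5% in Late desiccation. In Dry it went from 13.6% to 27.8% and from 14.9% to 29.9%. The higher concentration of Late desiccation thus lay in its first 3 genes, and most of it in the first one. The other tested gene of that gene's assembly component was also among these 3, with 190155 and 148268 counts in Late desiccation. Reads can be divided among genes of a component, so these genes are not separate measurements. In Dry, 73 and 63 genes made up 50% of counts and 1931 and 1722 genes 90%; in Late desiccation 10 and 39 genes made up 50%, and 3881 and 5051 genes 90%.

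**Figure D3:**
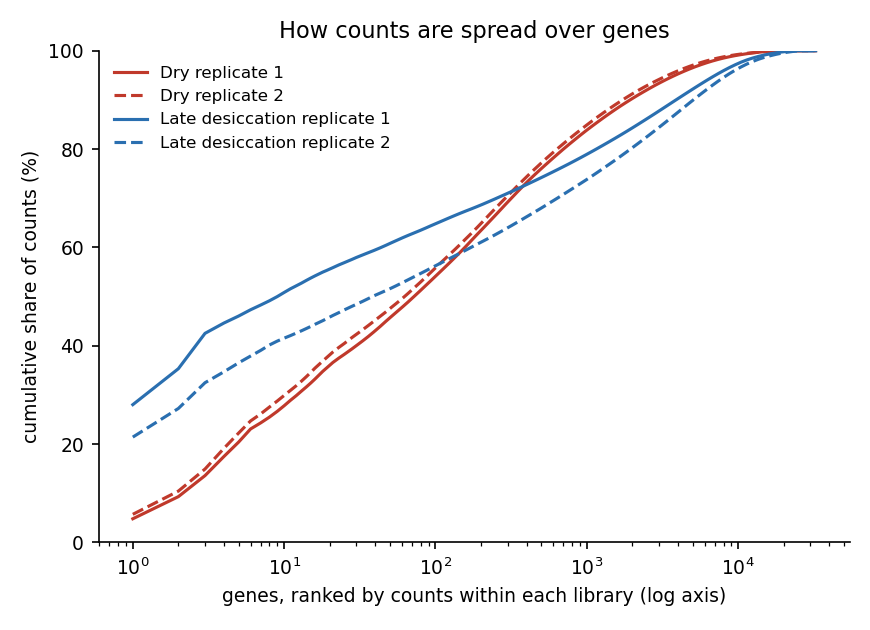
Cumulative share of counts (vertical axis, %) held by genes ranked by counts within each library (horizontal axis, log scale) in the 2 Dry and 2 Late desiccation libraries. At the first rank the Dry lines stand at 4.81% and 5.72% and the Late desiccation lines at 28% and 21.4%, and by rank 1000 the Dry lines lie above, at 83.9% and 84.9% against 78.9% and 73.8%.

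The lists of the 100 genes with most counts, ranked on the mean share of each stage, had 45 genes in common between Dry and Late desiccation. Of the Dry list 82 genes were higher and 1 was lower than in Late desiccation, and of the Late desiccation list 29 were higher and 10 lower. Ranked per length on the second deposited table, the lists shared 55 genes; of the Dry list 71 were higher and 1 lower, and of the Late desiccation list 29 were higher and 14 lower. A list chosen on its Dry level leans to genes that are higher in Dry by that choice, so these counts support no direction. Genes of these lists that were not called may still have changed, and the calls depend on the scaling between libraries.

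The 2 assembly genes that rose and the 2 that fell described here are the largest change with 10 or more counts in all 4 libraries and the largest share of counts, in each direction. None of them has a name in the deposited tables.

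TRINITY_DN244053_c1_g1 was near silent up to Late desiccation and abundant in Dry. No drops were collected between 7.5 h and about 24 h, so the time of its rise is not known. It had 23465 and 42186 counts in the Dry libraries, against 63 and 17 in Late desiccation. On scaled library sizes it stood at 14240 and 20531 CPM in Dry and at 21.9 and 4.64 CPM in Late desiccation, with no overlap. The log2 fold change was 10.36 (SE 1.38, edgeR adjusted p = 0.00295). At the earlier stages it had 10.6 and 5.8 CPM in Hydrated and 4.72 and 4.94 CPM in Early desiccation. All 4 of these values lay between those of the 2 Late desiccation libraries. After rewetting it was at 2887 and 356 CPM, between the levels of Late desiccation and Dry. It held 0.940% and 1.14% of all counts in Dry, and 11 compared genes had a larger mean share there. All its values were whole numbers and it was alone in its assembly component, which gives no sign of reads divided with another sequence. Across the 10 libraries, 381 other compared genes followed its log2 CPM with a Pearson r over 0.9, a likeness that rests on the same few high libraries.

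TRINITY_DN126975_c0_g2 held more counts than any other gene in Dry. Its share was 4.81% and 5.72% in Dry, against 1.42% and 2.22% in Late desiccation. It stood at 72914 and 103315 CPM in Dry and at 13051 and 17138 CPM in Late desiccation, and the log2 fold change was 2.55 (SE 0.61, adjusted p = 0.0197 by edgeR). Unlike the gene above, it was abundant from the start, with 24475 and 18398 CPM in Hydrated and 25005 and 37368 CPM in Early desiccation. After rewetting it was at 8756 and 10667 CPM, below every other stage. As a share of counts the order was closer, since it held 3.91% and 3.16% in Hydrated and 4% and 5.48% in Early desiccation, and Early desiccation overlapped Dry. The call was lost without either Dry library (adjusted p 0.116 and 0.181 without replicate 1 and 2), without either Late desiccation library (0.235 and 0.174), without either Hydrated library (0.0760 and 0.0625) or Early desiccation library (0.0720 and 0.0730), without a filter (0.246) and with the split as a term (0.0986), while the log2 fold change lay between 1.52 and 2.78 over all alternatives. All 10 of its values were non-whole, so part of its reads was divided with similar sequences. The other 2 tested genes of its component were scarce and not called (log2 fold changes of 0.70 and -2.34, adjusted p 0.808 and 0.728).

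TRINITY_DN221474_c10_g2 showed the largest fall among genes still well counted in Dry. It had 189 and 222 counts in Dry, against 25565 and 12982 in Late desiccation. On scaled library sizes it stood at 115 and 108 CPM in Dry and at 8884 and 3543 CPM in Late desiccation. The groups did not overlap, and the Late desiccation libraries differed from each other by more than the Dry libraries did. The log2 fold change was -5.80 (SE 1.14, edgeR adjusted p = 0.00984), a level 55.8-fold lower. The call was lost without Dry replicate 1 or 2 (adjusted p 0.0862 and 0.101), with the log2 fold change at -5.83 and -5.78. In Hydrated it was at 558 and 847 CPM and in Early desiccation at 2146 and 314 CPM, so both earlier stages lay below Late desiccation and above Dry. After rewetting it was at 5147 and 21525 CPM. Its share of counts was 0.412% and 0.711% there, against 0.967% and 0.459% in Late desiccation, so by share the 2 stages overlapped. Of its 10 values 7 were non-whole, so part of its reads was divided with similar sequences, and its component holds 4 genes in the table, of which it was the 1 tested.

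TRINITY_DN224299_c10_g1 was the gene with most counts in Late desiccation. It held 1.24% and 0.915% of counts in Dry, against 28% and 21.4% in Late desiccation. It stood at 18766 and 16545 CPM in Dry and at 257465 and 165451 CPM in Late desiccation, which is 12-fold lower (log2 fold change -3.58, SE 0.94, adjusted p = 0.0273 by edgeR). The values at the other stages were spread widely between replicates, at 23469 and 48792 CPM in Hydrated, 70409 and 18795 CPM in Early desiccation and 91384 and 362576 CPM in Rehydrated. By share of counts, the gene held 7.32% and 12% in Rehydrated, below both Late desiccation libraries. Rehydrated replicate 2 had the lowest TMM factor of the 10 libraries (0.336), so its CPM stand high against its shares. The call was lost without Dry replicate 1 or 2 (adjusted p 0.208 and 0.218), without Late desiccation replicate 1 or 2 (0.134 and 0.0903), without Hydrated replicate 1 (0.0579), without a filter (0.166), with the split as a term (0.0596) and in a limma fit of the second table plus 0.1 (0.123). The log2 fold change lay between -4.53 and -2.48 over all alternatives. Its effective length was 0.025 times that of the median reference gene, shorter than all but 38 of the compared genes. For that reason its part of the length-normalised second table was larger than its share of counts, at 24.8% and 19.7% of the column sum in Dry and 68.5% and 67.9% in Late desiccation. All 10 of its values were non-whole. The other tested gene of its component averaged 12270 CPM in Dry and 53272 CPM in Late desiccation and was not called (log2 fold change -2.12, adjusted p 0.0803).

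**Figure D4:**
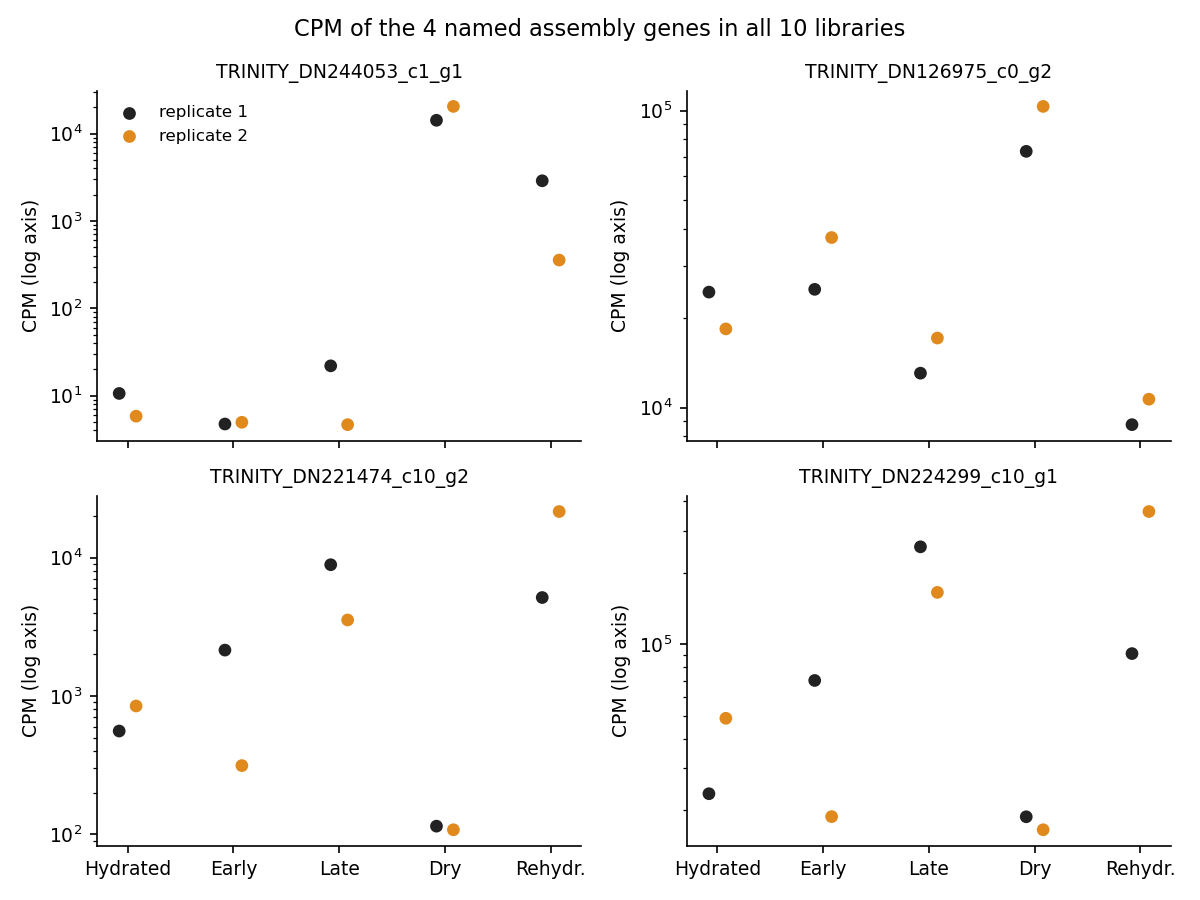
CPM on TMM-scaled library sizes (vertical axes, log scale, each panel with its own range) of the 4 named assembly genes in the 10 libraries, by stage in order of the course and by replicate. TRINITY_DN244053_c1_g1 stands at 14240 and 20531 CPM in Dry after 21.9 CPM or less at each earlier stage, and TRINITY_DN221474_c10_g2 is lowest in Dry at 115 and 108 CPM and high again after rewetting.

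Over the whole course, Dry was the extreme stage for most of the called genes. The genes that rose had a median log2 CPM of 4.50 and 4.16 in the Hydrated libraries, 4.26 and 4.39 in those of Early desiccation, 4.08 and 3.99 in those of Late desiccation, 6.74 and 7.01 in Dry, and 5.14 and 4.21 in Rehydrated. Of these 1598 genes, 1533 (95.9%) had their highest stage mean in Dry, 52 in Rehydrated, 11 in Hydrated and 2 in Early desiccation. The Hydrated mean lay closer to Dry than to Late desiccation in 161 of them (10.1%), the Early desiccation mean in 124 (7.76%) and the Rehydrated mean in 332 (20.8%).

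The genes that fell had a median log2 CPM of 3.61 and 3.87 in Hydrated, 4.11 and 3.93 in the next stage, Early desiccation, then 4.40 and 4.43 in Late desiccation, 1.86 and 1.81 in Dry, and 3.14 and 3.46 in Rehydrated. The medians of the Late desiccation libraries were thus the highest of the 10 libraries. Of these 1224 genes, 1026 (83.8%) had their lowest stage mean in Dry, 190 (15.5%) in Rehydrated, 6 in Hydrated and 2 in Early desiccation. The Hydrated mean lay closer to Dry than to Late desiccation in 243 of them (19.9%), the Early desiccation mean in 106 (8.66%) and the Rehydrated mean in 623 (50.9%). In Rehydrated, 1331 compared genes had 100 or more counts in replicate 1 and 298 in replicate 2, whose TMM factor was 0.336. The Rehydrated means of the genes that rose and that fell are therefore weakly measured. Genes not called had medians between 3.01 and 3.63 in all 10 libraries. The genes were selected on Dry and Late desiccation, which places both stages at the extremes in part by that choice, so these counts are given with no test. The change from Hydrated to Early desiccation, which shares no library with this comparison, had a Pearson r of -0.07 and a Spearman rho of -0.07 with the change from Late desiccation to Dry across the 11925 genes.

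**Figure D5:**
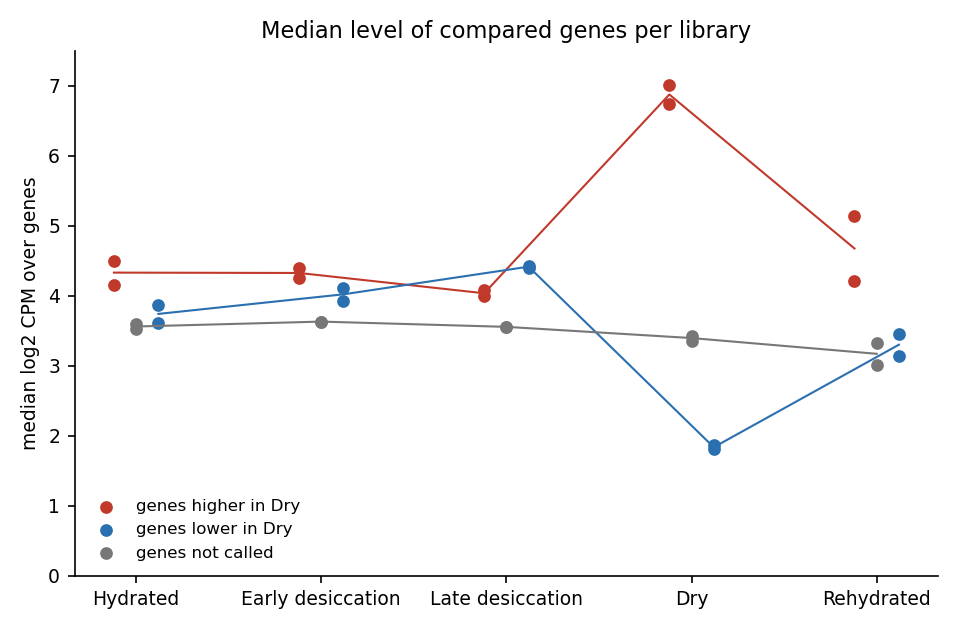
Median log2 CPM (vertical axis) over the compared genes that were higher in Dry, lower in Dry or not called, with 1 point per library and lines through the stage means, at the 5 stages in order of the course. The genes that rose stand at 6.74 and 7.01 in Dry and between 3.99 and 5.14 in the other libraries; the genes that fell stand at 1.86 and 1.81 in Dry and between 3.14 and 4.43 in the others.

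The limit of 10 counts sets the lower edge of the gene set. The 345 genes just inside it, whose second highest count of the 4 libraries was at least 10 and under 11, had a median total of 33 counts over the 4 libraries. The 394 genes just outside it, with a second highest count of at least 9 and under 10, had a median total of 30 counts.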

How the data were processed

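RNA of the 10 libraries was analysed from 2 tables deposited by the authors. Per the submitters' processing notes, CASAVA 1.4, Trimmomatic 0.35, Bowtie2 2.2, RSEM 1.2.28 and DESeq2 were used, while roles and assembly are not given in the sources used here. Expected counts of each assembly gene fill one table deposited by the authors (11.4% of values not whole), and were rounded for testing. The other deposited table holds a score, judged to be length-normalised expression scaled by TMM from its name and its column sums of 535618 to 2610432. Its formula is not stated. Columns begin with Scos and titles with Ecos, so they were matched by replicate number and time code. Per the labels' protocols, ribosomal RNA was depleted with a kit designed for Arabidopsis and 105 custom oligos.

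In R 4.3.3, edgeR 4.0.16 kept 16190 genes (filterByExpr, minimum count 10, minimum total 15; 97% to 99.6% of each library's counts), scaled by TMM, fitted stage over all 10 libraries (5 residual degrees of freedom) and tested Dry against Late desiccation by quasi-likelihood with Benjamini-Hochberg adjustment over all genes tested. Log2 CPM used a prior count of 2. The SE is the log2 fold change divided by the square root of F. Alternatives used DESeq2 1.42.0 and limma 3.58.1, among others, and the fit was tested on simulated data. Total counts ran from 1974807 to 3867190 per library. No gene names or sequences were available, so the lists of genes by function were not used, and the named genes are at most 2 in each direction: called, not overlapping, with the largest change among genes with 10 or more counts in each of the 4 libraries, and with the largest mean share of counts. The compared genes and groups were chosen with earlier results of these data known.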

Additional observations from a re-analysis of the deposited data

How the results depend on the processing

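Of the 1598 genes higher and 1224 lower in Dry, the counts stayed within 1.5 times under RLE and upper-quartile scaling, without a filter, in the libraries on the Dry side of the split (where Late desiccation has 1 library, assumed to vary like the other stages), with the replicate block (1599 higher and 1139 lower), by DESeq2 and with limma run on log2 of the second table plus 1. Higher and lower counts were 366 and 2343 under total counts, 2711 and 2501 in the fit of the 4 libraries (2 residual degrees of freedom), 837 and 582 with the split as a term, 2698 and 2027 by limma voom with library weights, 757 and 809 when limma used the second table plus 0.1, 483 and 181 at an adjusted p under 0.01, and 812 and 471 in a test against a 2-fold change. With only the compared genes in the fit, 2026 were higher and 1928 lower. Without both Rehydrated libraries, an alternative chosen after seeing the data, 2730 were higher and 2291 lower. Leaving out 1 library gave 198 to 2500 higher and 73 to 2157 lower genes. The cause of these shifts was not tested, except that stricter limits call fewer genes by construction. EdgeR, DESeq2 and limma voom with library weights all called 1592 genes higher and 1174 lower. Without 1 library of these stages, genes called under every scaling numbered 0 to 41 higher and 0 to 161 lower, against 365 and 1181. Where both were 0, it was total counts that gave no call. The main fit did not pair libraries by replicate number. Deviations of same-numbered Dry and Late desiccation libraries from their stage means correlated at 0.08. Over the 10 pairs of stages this ran from -0.1 to 0.21 (Hydrated with Rehydrated). With 2 libraries per stage, low values cannot exclude a pairing. The share of the 100 genes with most counts, at -5.55 points for Dry minus Late desiccation, became -17.3 for 10 genes, 8 for 1000 genes, where the direction turned, and -19.8 on the second table; the number of detected genes kept its direction. TRINITY_DN244053_c1_g1 stayed called under all 24 alternatives (log2 fold change 9.43 to 11.87, adjusted p up to 0.0354). The other 3 named genes kept their direction under all 24 and their call under 14 (TRINITY_DN126975_c0_g2), 22 (TRINITY_DN221474_c10_g2) and 16 (TRINITY_DN224299_c10_g1). With 2 libraries per stage and 1974807 to 3867190 counts per library, a gene that was not called may still have changed.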
